A study of Mus musculus with 8 samples.

Results

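A CpG reads the same on either strand of DNA, so each CpG holds a cytosine on the plus strand and a cytosine on the minus strand, and the pair is called a CpG dyad. The dyads described here are autosomal positions of a reduced representation bisulfite sequencing (RRBS) table at which both cytosines of the pair had at least 10 reads in every one of 8 libraries. Adjoining rows that met this rule numbered 901 pairs. Of these, 799 were resolved as CpG dyads, 76 joined the cytosines of neighbouring CpGs, and 26 lay in runs of rows of odd length and were not resolved. The 799 dyads held 1598 of the 33679 autosomal rows with at least 10 reads in every library, and the other 32081 such rows were in no dyad. The whole table had 4006353 rows.

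The libraries came from I1DN leukaemic progenitor cells, sorted as cKit+ and Cd11b-, of mice transplanted with I1DN leukaemic cells, a model of acute myeloid leukaemia with mutant IDH1 per the series title. The mice received AG120 and azacitidine together (the combination), azacitidine alone (AZA), AG120 alone or vehicle (Vehicle), and per the labels the time was 5 days. Each group had 2 libraries, and all 4 groups carried the same leukaemia. AG120 is ivosidenib, an inhibitor of mutant IDH1, and the series asks what it does to DNA methylation together with azacitidine. The labels do not say that the libraries came from separate mice, so each p-value measures the spread between these libraries, which may be technical. No expression was measured in these libraries, so the sorted cell type was not checked against markers.

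Methylation of a CpG is normally kept on both strands. After replication the new strand lacks it, and the maintenance methyltransferase DNMT1, guided by UHRF1, copies the mark from the old strand, so a dyad methylated on 1 strand only is usually short-lived. Azacitidine enters nucleic acids and traps DNA methyltransferases, which leaves new strands without the mark. TET enzymes oxidise methylcytosine and are inhibited by 2-hydroxyglutarate, the product of mutant IDH1, so that IDH-mutant cells are known for added methylation. A bisulfite count table gives each strand as an average over the molecules read, and the strands of 1 molecule are not linked in it. A dyad with 1 strand high and the other low is therefore called discordant here and not hemimethylated.

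The libraries with AG120 differed from those without it in depth and in overall methylation. They held 90373925 to 110137175 CpG calls, against 119441709 to 130796962 without AG120. Methylated calls made up 41.5 to 50.5% of all calls with AG120, against 32.6 to 39.2% without. The part of this in the results below was not tested. The dyads took 3.19 to 4.09% of the calls of a library.

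Few dyads lay in promoters, and these show what a dyad looks like in sequence. Of the RefSeq promoter windows of GRCm38.p6 used here (250 bases before to 50 after a gene's start; the coordinates are those of mm10), 19 held 101 dyads, counting those of overlapping windows in each. The mean level was under 20% in 14 windows, 20 to 80% in 3 and over 80% in 2, which overlap each other. The 5 sequences below are of the plus strand, and capitals mark the CpGs whose strands were both read in every library. They were chosen to show a mostly methylated, a pair of unmethylated, a partly discordant and a mixed window.
Tmem267 chr13:119488308-119488522: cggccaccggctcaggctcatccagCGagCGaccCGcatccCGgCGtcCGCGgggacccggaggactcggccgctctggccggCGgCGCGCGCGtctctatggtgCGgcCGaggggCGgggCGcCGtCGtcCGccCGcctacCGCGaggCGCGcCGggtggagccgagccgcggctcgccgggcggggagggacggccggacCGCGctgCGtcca
Eif1ad chr19:5366711-5366795: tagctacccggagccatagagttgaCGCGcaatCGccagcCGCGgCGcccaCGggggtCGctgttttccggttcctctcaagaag
Clasrp chr7:19604314-19604396: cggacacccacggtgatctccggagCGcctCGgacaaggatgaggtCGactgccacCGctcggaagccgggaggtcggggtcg
LOC115490388 chr6:3182902-3183027: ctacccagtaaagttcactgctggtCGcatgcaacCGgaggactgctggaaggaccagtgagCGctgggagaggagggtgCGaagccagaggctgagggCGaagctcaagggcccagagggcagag
Kcnk2 chr1:189343330-189343381: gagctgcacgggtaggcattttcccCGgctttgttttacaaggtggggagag

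The window of Tmem267, which encodes a transmembrane protein, held 28 dyads, the most of any promoter window together with that of its neighbour 3110070M22Rik. Its mean dyad level was 88.9 and 90.7% in the combination libraries, 85.8 and 93.0% in AZA, 84.5 and 92.2% in AG120, and 91.9 and 61.3% in Vehicle. Vehicle replicate 2 was the lowest of the 8, and the other Vehicle library lay within the range of the treated ones. The 8 dyads of the Eif1ad window, whose gene encodes a protein with a translation initiation factor domain, had mean levels of 0 and 0% in the combination, 0 and 0.234% in AZA, 0 and 0% in AG120, and 3.01 and 0.329% in Vehicle. The 4 dyads of Clasrp, a gene for a splicing-related protein, were at 0% in every library but combination replicate 2, at 0.0806%. The 5 dyads of LOC115490388 stood at 59.6 and 50.8% in the combination, 54.7 and 53.3% in AZA, 74.1 and 48.7% in AG120, and 67.2 and 57.0% in Vehicle. Of their 40 readings, 11 were discordant. The single dyad of Kcnk2, a potassium channel gene, ranged over 88.9 and 25.8% in the combination, 41.7 and 3.79% in AZA, 29.7 and 37.7% in AG120, and 26.8 and 54.0% in Vehicle, with the libraries of every group far apart or overlapping those of others.

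RRBS fragments begin at CCGG, the site of the enzyme MspI. The motif CCGG, which is its own reverse complement, was present in all 19 of these promoter windows and at 2 or more places in 84.2% of them. Among all 31363 autosomal promoter windows of the same length, here with chromosome 18, 53.5% held CCGG and 33.1% held it at 2 or more places. Only 8 of the 101 promoter dyads were themselves the CpG of a CCGG. In the windows where letters could be read, 74 of 74 dyads were CG and 11 of 11 pairs set aside as joining neighbouring CpGs were GC. Outside those windows a dyad's identity rests on the order of the positions.

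The 799 dyads were unevenly spread. A stretch of 5685 bp on chromosome 17 (chr17:39843026-39848710) held 330 of them, 41.3% of all. It contains Rn18s-rs5, an 18S ribosomal RNA related gene (chr17:39846354-39848202), with 55 dyads inside it, and the start of AY036118. In this stretch, called the rRNA stretch below, 86.0% of the 767 rows with enough reads were in dyads, against 2.85% of the other rows. Ribosomal RNA genes are repeated many times in the mouse genome, and in counts assigned to 1 position the copies cannot be told apart. The other 469 dyads fell into 175 stretches (dyads at most 100 bp apart), of which 82 held 1 dyad, and named 146 genes. Of them, 363 lay inside a gene, 47 within 5000 bp of one and 59 further away. Dyads of the rRNA stretch had a median of 1872 to 2698 reads per strand in a library, and the others 168.5 to 236.

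Where the strands had matching levels, the rRNA stretch differed from most of the other dyads, but less from the deeply read ones. No dyad of the rRNA stretch had both strands over 80% in any library. There, 68.2 and 57.9% of dyads in the combination libraries had both strands between 20 and 80% with a strand difference of at most 50 points, 58.8 and 63.6% in AZA, 54.8 and 66.7% in AG120, and 50.9 and 57.3% in Vehicle. The libraries of the groups overlapped or nearly met, and 80 dyads were in this class in all 8. Elsewhere the dyads divided into methylated and unmethylated ones. Both strands were over 80% in 19.8 to 23.9% of these dyads, both were under 20% in 41.6 to 48.2%, and strands differed by over 50 points in 4.26 to 11.9%, over the 8 libraries. In all 8 libraries 144 dyads had both strands under 20% and 22 had both over 80%, while 9 kept both strands between 20 and 80%. Only 11 dyads had both strands over 80% in some library and both under 20% in another.

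**Figure D1:**
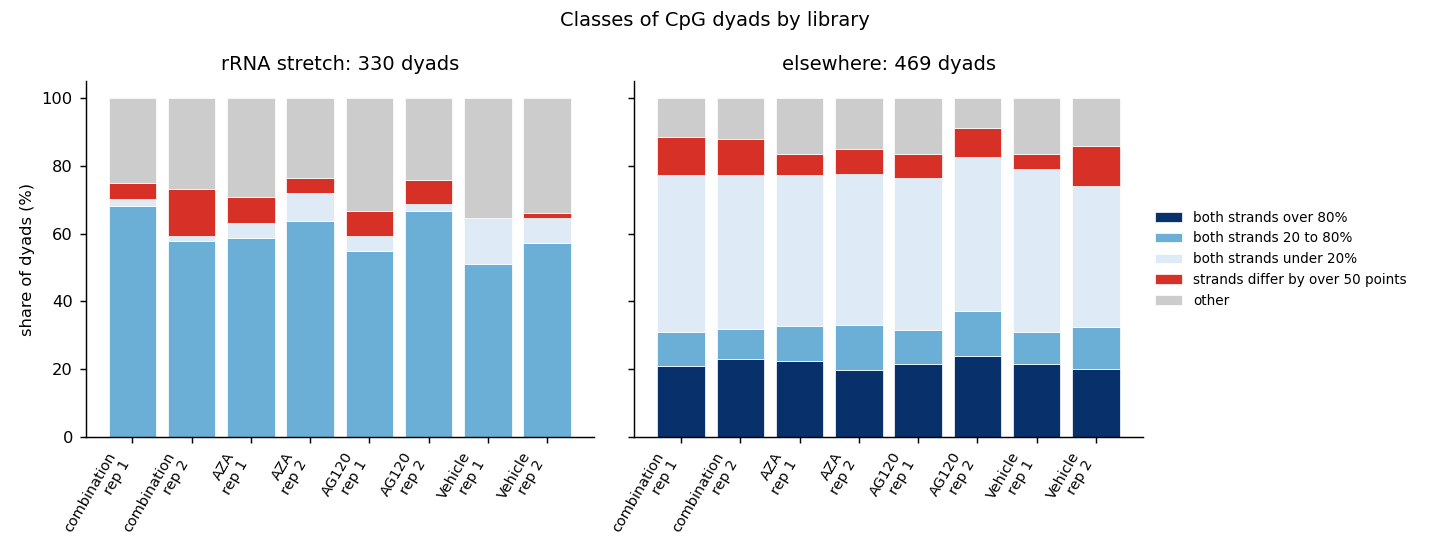
Share of dyads in each class (%) in each library, with the rRNA stretch on the left (330 dyads) and all other dyads on the right (469). No bar of the rRNA stretch has a share with both strands over 80%, while elsewhere 19.8 to 23.9% of dyads did and 41.6 to 48.2% had both strands under 20%.

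The values on either side of the read minimum were as follows. The 44 dyads whose lowest count was 10 reads had a mean level of 26.6%, and the 61 dyads just outside the rule, at 9 reads, one of 28.8%. Discordant readings made up 11.9% of readings just inside and 6.56% just outside.

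The dyads held steadily methylated or unmethylated genes that were named by depth. Among dyads over 80% on both strands in all 8 libraries, those with the greatest lowest depth, 1 per gene, were at chr2:98666393 (at least 73359 reads), in Sfi1, whose product is a centrosome protein, and near Adnp (a homeobox transcription factor), Tacc1 (a coiled-coil centrosome protein) and Kank1 (an ankyrin repeat protein of cell adhesions). The Tacc1 dyad was at 100 and 100% in the combination, AZA and AG120 on both strands, and the lowest Vehicle reading was 99.4%. The Kank1 dyad read 100% on both strands in all 8 libraries, from at least 16 reads. Among dyads under 20% on both strands in all 8, the deepest were in Sfi1, Dclk3 (a protein kinase), Clasrp and Trim11 (a ubiquitin ligase) and near Hoxc12 (a homeobox gene). Dclk3 read 0% on both strands of all libraries from at least 42 reads, and 0 of 42 reads allows a level of up to 7.14%. Limits of this kind cover counting error only, since PCR copies are not independent molecules.

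Sfi1 showed both extremes within 1 stretch of 19 dyads (chr11:3193355-3193597). At position 3193509 the dyad level averaged 98.4% in the combination, 94.5% in AZA, 94.8% in AG120 and 94.5% in Vehicle. At 3193558 it averaged 4.52, 3.31, 6.67 and 4.68% in the same order of groups. The neighbour at 3193548 averaged 90.5% in the combination, 88.8% in AZA, 91.8% in AG120 and 93.5% in Vehicle. The one at 3193583 averaged 91.1, 91.8, 96.2 and 95.8% in the same order, so the unmethylated dyad lay between these methylated ones in every group. The 18 dyads of Sfi1 with a mean depth of at least 1000 reads had no discordant reading in any library.

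Dyads with both strands between 20 and 80% were led by AY036118 and Rn18s-rs5, and then by Gm36876, Zc3h7a (a CCCH zinc finger gene) and Cdk8, the kinase of the Mediator complex. The AY036118 dyad at 39848480 averaged 41.9% in the combination, 29.0% in AZA, 43.3% in AG120 and 31.1% in Vehicle, from at least 4634 reads per strand. The Cdk8 dyad at 146261065 averaged 41.2, 24.9, 40.3 and 20.5% in the same order. In both, each mean with AG120 was above each mean without it.

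Over all 799 dyads the mean level was higher with AG120. It was 41.0 and 39.7% in the combination libraries, 36.2 and 35.9% in AZA, 37.9 and 40.9% in AG120, and 32.6 and 34.1% in Vehicle. All 4 libraries with AG120 were above all 4 without it. The means were 39.9 ± 1.45% with AG120 and 34.7 ± 1.70% without (SD, n = 4 each), a difference of 5.20 points (95% interval 1.72 to 8.48, from the same permutations; two-sided exact permutation p = 0.0286, the smallest that 4 libraries against 4 can give, and 0.0714 after Benjamini-Hochberg adjustment over 5 measures). The difference thus did not pass the adjusted threshold of 0.05. It rested on clustered dyads: with 1 dyad taken per stretch it was -0.672 points (exact permutation p = 0.314), and without Vehicle replicate 1 it was 4.49 points (p = 0.0571).

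Strand differences were also larger with AG120 before adjustment. The mean absolute difference between strands was 17 ± 2.2 points with AG120 and 14.0 ± 1.64 without (difference 2.97, interval 0.188 to 8.59; exact permutation p = 0.0286, adjusted 0.0714), and the groups did not overlap. It was 2.2 points without Vehicle replicate 1 and 1.90 without combination replicate 2 (exact permutation p = 0.0857 and 0.0571), and without Vehicle replicate 2 or either AZA library it was 3.09 to 3.40 points (exact permutation p = 0.0571). Discordant dyads made up 8.39 and 11.9% in the combination, 7.01 and 6.13% in AZA, 7.13 and 8.01% in AG120, and 2.63 and 7.63% in Vehicle. Vehicle replicate 1 was the lowest and combination replicate 2 the highest. With AG120 the share was 8.85 ± 2.09%, against 5.85 ± 2.24% without (difference 3.0, interval -0.501 to 9.26; exact permutation p = 0.0571, adjusted 0.0952). Without the rRNA stretch, an alternative chosen after the data were seen, the mean absolute difference was 1.07 points larger with AG120 (exact permutation p = 0.40).

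The shares of concordant dyads did not differ by AG120 beyond the spread of the libraries. Both strands were over 80% in 13.1 ± 0.758% of dyads with AG120 and 12.3 ± 0.718% without (difference 0.845, interval -0.751 to 2.38; exact permutation p = 0.171). Both were under 20% in 27.8 ± 0.505% with AG120 and 29.7 ± 2.92% without (difference -1.91, interval -6.63 to 0.876; exact permutation p = 0.314). The second of these turned round when the classes were set at 90 and 10% (1.31 points, exact permutation p = 0.0286).

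Azacitidine gave no difference past the threshold in any of the 5 measures. The mean dyad level was 38.2 ± 2.56% with AZA and 36.4 ± 3.76% without (difference 1.85, interval -4.97 to 8.48; exact permutation p = 0.40). The discordant share was 8.35 ± 2.53% with AZA and 6.35 ± 2.51% without (difference 2.0, interval -1.88 to 9.26; p = 0.429 by the same exact test). The interval of the mean level includes changes of several points in either direction, and that of the discordant share includes a rise of several points. For the interaction of the drugs every exact permutation p was at least 0.714.

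**Figure D2:**
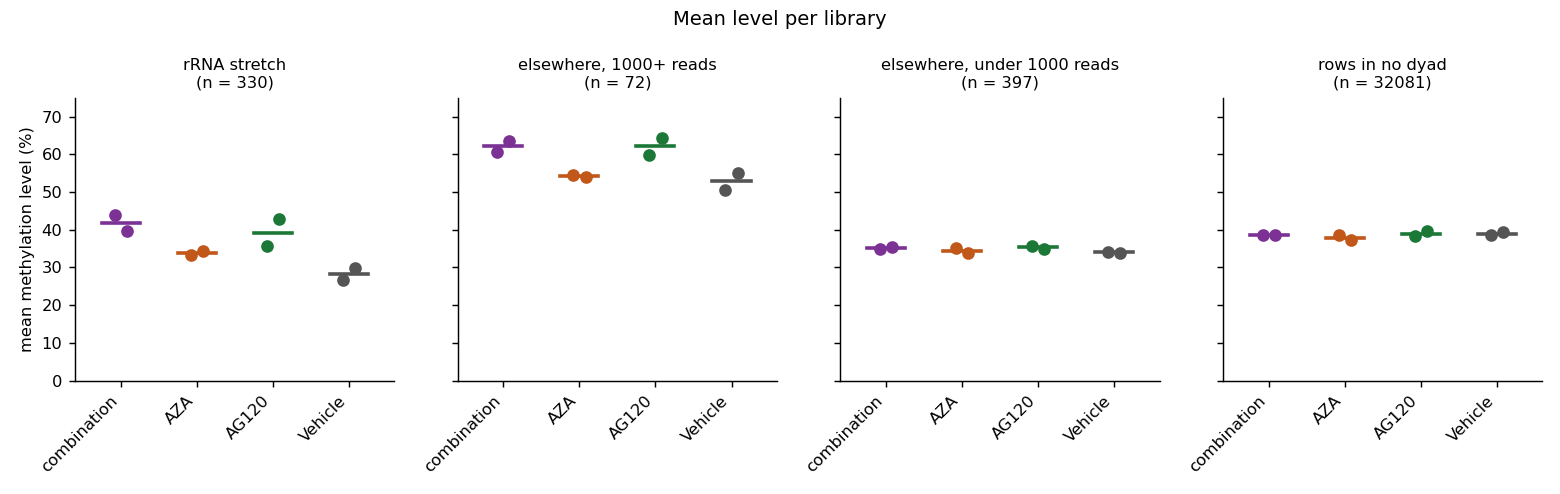
Mean methylation level (%) of the dyads of the rRNA stretch, of other dyads with a mean depth of at least 1000 reads, of the remaining dyads and of rows in no dyad. Points are libraries and lines are group means; the first 2 panels show the AG120 and combination libraries above all AZA and Vehicle libraries, and the last 2 do not.

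Among dyads, the higher level with AG120 lay mostly in the rRNA stretch, in a few other deeply read loci and in the less deeply read Cmss1 and Filip1l interval. The division by depth was chosen after the values were seen and is given without a test. The mean level of the 330 dyads of the rRNA stretch was 44.0 and 39.8% in the combination, 33.4 and 34.5% in AZA, 35.7 and 42.8% in AG120, and 26.6 and 29.8% in Vehicle. The 4 libraries with AG120 averaged 40.6 ± 3.73%, against 31.1 ± 3.59% for the 4 without, with no overlap. Of these dyads 284 were higher with AG120 and 46 lower, with a median difference of 10.8 points. With AZA 246 were higher and 84 lower, with a median of 2.83 points. The 107 rows of the stretch that were in no dyad stood at 53.2 and 54.6% in the combination, 38.3 and 41.3% in AZA, 44.3 and 56.7% in AG120, and 31.5 and 35.5% in Vehicle.

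The difference was not even along the stretch. Of its 9 parts, those starting at 39843026, 39844551, 39845571 and 39848406 had no overlap between libraries with and without AG120. In the part of 35 dyads at 39843026, the mean level was 45 and 36.6% in the combination, 28.2 and 29.3% in AZA, 33.1 and 40.8% in AG120, and 19.3 and 23.9% in Vehicle. In the part of 23 dyads starting at 39846425, which lies inside Rn18s-rs5, it was 22.3 and 38.0% in the combination, 32.4 and 42.9% in AZA, 23.3 and 47.6% in AG120, and 29.8 and 31.7% in Vehicle, 1.41 points lower with AG120. That part held the lowest and the highest of the 8 libraries among those with AG120. The part of 25 dyads at 39847593, also inside Rn18s-rs5, was 2.03 points higher with AG120. The part of 14 dyads at 39848101, which runs past the end of that gene, was 3.30 points higher. In both, libraries with and without AG120 overlapped.

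**Figure D3:**
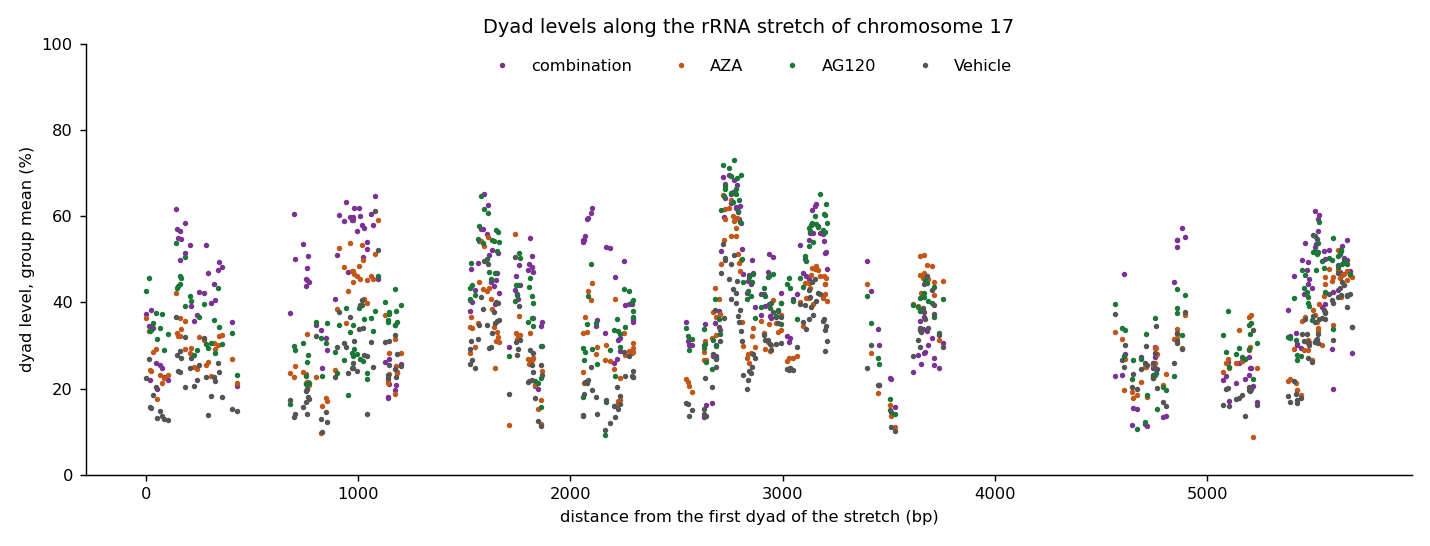
Dyad level (mean of the strands and of the 2 libraries of a group, %) against distance from the first dyad of the rRNA stretch (bp), coloured by group. Levels stay below 80% throughout, and the combination and AG120 points lie above the AZA and Vehicle points over much of the stretch. The difference is small or reversed in the parts at Rn18s-rs5 that start at 39846425, 39847593 and 39848101.

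Outside the rRNA stretch, the loci of deeply read dyads moved in different ways. The 72 dyads with a mean depth of at least 1000 reads lay at 7 loci and stood at 62.2 ± 2.22% with AG120 and 53.6 ± 2.0% without. The 397 other dyads stood at 35.3 ± 0.355% with AG120 and 34.3 ± 0.638% without, and those libraries overlapped. They include the 18 dyads of the Cmss1 and Filip1l interval described below, at 66.1% with AG120 and 32.7% without. The difference of the 397 without that interval was not computed. Rows in no dyad that were as deeply read and outside the rRNA stretch, 272 in number, also separated by AG120, with a smaller difference. They stood at 67.3 and 67.7% in the combination, 65.8 and 64.0% in AZA, 67.6 and 69.0% in AG120, and 65.1 and 66.6% in Vehicle, or 67.9 ± 0.737% with AG120 and 65.4 ± 1.10% without. In Gm36876 (13 dyads, chr11:109011787-109011929) the mean level was 46.8 and 46.9% in the combination, 37.5 and 30.4% in AZA, 43.8 and 53.5% in AG120, and 25.9 and 35.1% in Vehicle. In Cdk8 (7 dyads, chr5:146261015-146261178) it was 43.5 and 35.6% in the combination, 22.5 and 26.9% in AZA, 34.0 and 53.1% in AG120, and 19.8 and 21.8% in Vehicle. The libraries with AG120 were above all others at both loci. The 11 dyads of Zc3h7a averaged 46.8 ± 9.07% with AG120 and 36.5 ± 6.25% without, with overlap between libraries. Mean depth was 5374 reads in Gm36876, 3173 in Cdk8 and 2682 in Zc3h7a. Whether reads from repeated copies were assigned to these loci was not tested. Their differences are therefore not counted as independent of that of the rRNA stretch or of each other.

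At the deepest locus there was no such shift. The 16 dyads at chr2:98662565-98667256, in no gene of the RefSeq table within 5000 bp and read 50791 times per strand and library on average, were at 76.4 ± 2.37% with AG120 and 76.4 ± 1.24% without, a difference of 0.0367 points. Depth was uneven there. The stretch of 5 dyads starting at 98662565 averaged 44233 reads and that of 2 dyads at 98666384 averaged 286801, far above the dyads of other loci. The stretches of the remaining dyads averaged 1119 to 3808 reads, depths also found at other loci. Reads from repeated copies cannot be told apart there. The 18 deep Sfi1 dyads averaged 87.0 ± 2.62% with AG120 and 81.8 ± 3.74% without, with overlap, and 17 of the 18 were higher.

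The largest difference at a stretch of many dyads was in an interval shared by Cmss1 and Filip1l (18 dyads, chr16:57391288-57391502). The genes encode a small ribosomal subunit related protein and a filamin A interacting protein-like protein. Its mean level was 73.3 and 70.1% in the combination, 30.5 and 33.9% in AZA, 64.2 and 56.8% in AG120, and 32.1 and 34.2% in Vehicle. With AG120 it averaged 66.1%, against 32.7% without, and the lowest library with AG120 was well above the highest without. Mean depth there was 481 reads, and the locus was singled out after its values were seen. Whether reads from repeated copies were assigned to it was not tested either. At position 57391306 the plus strand read 61.8 and 70.05% in the combination, 3.01 and 22.1% in AZA, 78.7 and 43.3% in AG120, and 5.93 and 30.1% in Vehicle. The minus strand there read 54.6 and 57.3%, 45.9 and 40.3%, 63.5 and 57.9%, and 31.7 and 25% in the same order. Both strands were thus higher in all 4 libraries with AG120.

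Rows of dyads separated by AG120 more often than rows in general, a comparison with limits. A row cannot separate upwards if a library with AG120 reads 0% or one without it reads 100%. Readings of exactly 0 or 100% made up 79.0% of rows in no dyad and 34.8% of dyad rows. The part of this in the counts was not tested, and all rows include the dyad rows. The same limits hold for the AZA and combination counts below. All 4 libraries with AG120 lay above all 4 without in 177 of the 1598 dyad rows (11.1%), where 1.02% of all 33679 rows did so. Of the 177 rows, 122 were among the 660 of the rRNA stretch and 55 among the 938 elsewhere. Without AG120 replicate 1 the count was 285. All 4 lay below in 5 dyad rows, where 0.288% of all rows did so. On both strands of the same CpG, 22 dyads were separated upwards, 15 in the rRNA stretch and 7 elsewhere, and none downwards. The 7 were 5 dyads of the Cmss1 and Filip1l interval, 1 of Gm36876 and 1 of Cdk8.

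The 4 libraries with AZA lay above the others in 17 dyad rows, or 1.06% of dyad rows, where 0.264% of all rows did so. Of the 17, 15 were in the rRNA stretch (2.27% of its rows) and 2 elsewhere (0.213%). They lay below in 4 dyad rows, or 0.25% (all rows, 0.33%), and no dyad was separated on both strands. In the combination against Vehicle, with 2 libraries each, 507 dyad rows (31.7%) were higher without overlap (all rows, 5.65%) and 76 (4.76%) lower (all rows, 4.96%). Of the 507, 355 were in the rRNA stretch (53.8% of its rows) and 152 elsewhere (16.2%). Without any drug difference, rows without ties would still separate, up or down. By exact permutation the rate would be 0.0286 for 4 libraries against 4 and 0.333 for 2 against 2. On both strands 136 dyads were higher, 96 of them in the rRNA stretch, and 5 were lower.

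Among dyads separated on both strands, those with the largest differences by AG120 included Cdk8 at 146261177. Its dyad level was 68.7% in the combination, 29.4% in AZA, 63.2% in AG120 and 36.7% in Vehicle, and the plus strand reached 100 and 99.7% in the combination and 76.2 and 100% in AG120. The rRNA stretch gave position 39844830 near Rn18s-rs5, at 49.0% in the combination, 25.7% in AZA, 43.6% in AG120 and 21.9% in Vehicle. It also gave 39848552 in AY036118, at 60.4, 39.5, 58.7 and 36.2% in the same order. For the combination against Vehicle the largest positive difference among these was 56.3 points at 57391391 in Cmss1 and Filip1l, and the dyad at 39843725 near Rn18s-rs5 stood at 60.5% in the combination and 13.5% in Vehicle. The negative differences were at chr5:77487827, at 0% in the combination and 45.6% in Vehicle, in Gadd45a, a stress response gene, at 0 and 38.8%, and in Tmem267 at 119488435, at 10.3 and 43.5%. The Gadd45a dyad read 0% on both strands of both combination libraries, from at least 89 reads, while its Vehicle plus strand read 9.52 and 94.2%.

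The count model called few rows. In edgeR's quasi-likelihood test of the average effect of AG120 over all 33679 rows, 20 rows (0.0594%) had an adjusted p under 0.05, and 11 of them were dyad rows, all higher with AG120. Of the dyad rows 217 had an unadjusted p under 0.05, 211 of them higher. The 11 rows lay in Sfi1 (3 rows), around Rn18s-rs5 (7 rows) and in AY036118 (1 row), and were singled out after their values were seen. DESeq2 called 134 dyad rows, the likelihood ratio test 1 and limma 0. Without AG120 replicate 1 or 2 the quasi-likelihood test called 88 or 28 dyad rows, and without combination replicate 1 or 2 it called 22 or 39. Leaving out an AZA library gave 4 or 3 and leaving out a Vehicle library 4 or 3.

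The dyad row with the smallest p for AG120 was the minus strand of Sfi1 at 3193474. It read 99.9 and 95.9% in the combination, 89.9 and 93.2% in AZA, 100 and 100% in AG120, and 86.6 and 78.7% in Vehicle (edgeR adjusted p = 2.36e-16). The libraries with AG120 were above all others, the lowest at 95.9% against 93.2% for the highest without. Both libraries of AG120 alone read 100%, and log odds grow without limit near that level. The part of this in the small p was not tested. The plus strand of the same Sfi1 dyad read 82.5 and 100% in the combination, 91.7 and 96.3% in AZA, 100 and 99.3% in AG120, and 87.1 and 100% in Vehicle, and did not separate the drug arms. The minus strand at 39843879 near Rn18s-rs5 read 33.6 and 23.3% in the combination, 21.7 and 16.3% in AZA, 30.8 and 55.8% in AG120, and 14.7 and 12.9% in Vehicle (log2 odds ratio 1.5, edgeR adjusted p = 0.000854).

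For the other contrasts, edgeR's quasi-likelihood test called 4 dyad rows for AG120 against Vehicle (all rows, 0.0267%) and 1 for the combination against Vehicle (all rows, 0.0386%). It called 3 for the combination against AG120 (all rows, 0.0386%) and 2 for the combination against AZA (all rows, 0.0445%). For AZA against Vehicle it called 0 dyad rows (all rows, 0.0148%), with 11 at an unadjusted p under 0.05, and DESeq2, limma and the likelihood ratio test also called 0. These contrasts share libraries. The average effect of AZA gave 2 dyad rows, both lower (all rows, 0.0238%), on the minus strands at Sfi1 3193474 and chr2:98662686. The chr2 row read 87.5 and 86.9% in the combination, 87.1 and 88.2% in AZA, 89.1 and 89.9% in AG120, and 87.9 and 88.4% in Vehicle, and the AZA arms overlapped. At the Sfi1 row the mean level, from the values above, was higher with AZA than without, so the sign fitted on the log odds scale goes against the means.

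The levels of the strands were correlated across dyads elsewhere but little or not in the rRNA stretch. Across dyads within a library, Pearson's r between the strands was 0.759 to 0.882 elsewhere and -0.189 to 0.356 in the rRNA stretch. Dyads of a stretch share fragments and depth, so these are descriptions across positions and not over replicates. In combination replicate 2 the r of the rRNA stretch was -0.189 and 45 of its 330 dyads were discordant, against 0.138 and 1 dyad in Vehicle replicate 1.

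**Figure D4:**
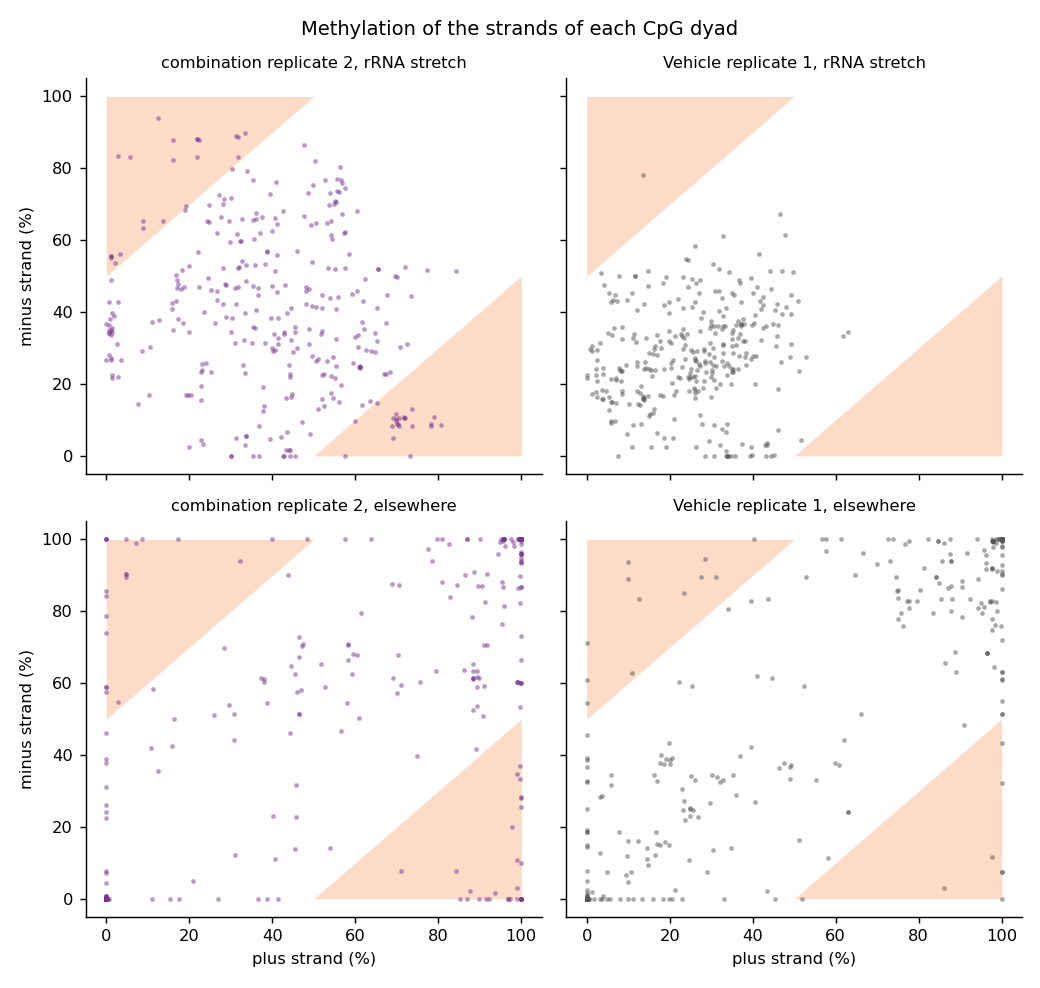
Methylation (%) of the plus strand against the minus strand of each dyad in combination replicate 2 (left) and Vehicle replicate 1 (right), for the rRNA stretch (top) and elsewhere (bottom); shaded corners hold discordant dyads. Combination replicate 2 has 45 dyads of the rRNA stretch in the shaded corners and Vehicle replicate 1 has 1, and elsewhere most dyads gather at the corners where both strands are high or both low.

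Levels followed the strand more closely than the CpG. The mean absolute difference between the strands of 1 CpG in the rRNA stretch had a median of 19 points over the 8 libraries. For neighbouring dyads within 10 bp it was 6.77 points on the same strand and 18.2 points on opposite strands. Elsewhere these values were 13.2, 8.93 and 15.1 points. On average a cytosine was therefore nearer in level to the next cytosine of its own strand than to its partner across the CpG. Nearby cytosines of 1 strand are often read in the same reads, and those of opposite strands in different ones. The part of this in these values and in the cases below was not tested. The values for neighbours also cover only dyads with another within 10 bp. Where a stretch had at least 2 discordant dyads in 1 library, the same strand was the higher one in all of them in 20 of 24 cases in the rRNA stretch and in 47 of 53 elsewhere.

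Of the 799 dyads, 542 were discordant in no library and 257 in at least 1. Strand differences recurred at 126 of the 257, which were discordant in 2 or more libraries, and the other 131 were discordant in 1 library. Among these 126, the same strand was always the higher one in 66, and in 60 the higher strand changed between libraries. Outside the rRNA stretch, libraries of the same group shared 6 to 18 discordant dyads, which were 24.2 to 34.6% of those of replicate 1 and 10.7 to 36% of those of replicate 2, and in 3 to 7 of them the same strand was higher. Libraries of different groups shared 4 to 21, with the same strand higher in 1 to 19.

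**Figure D5:**
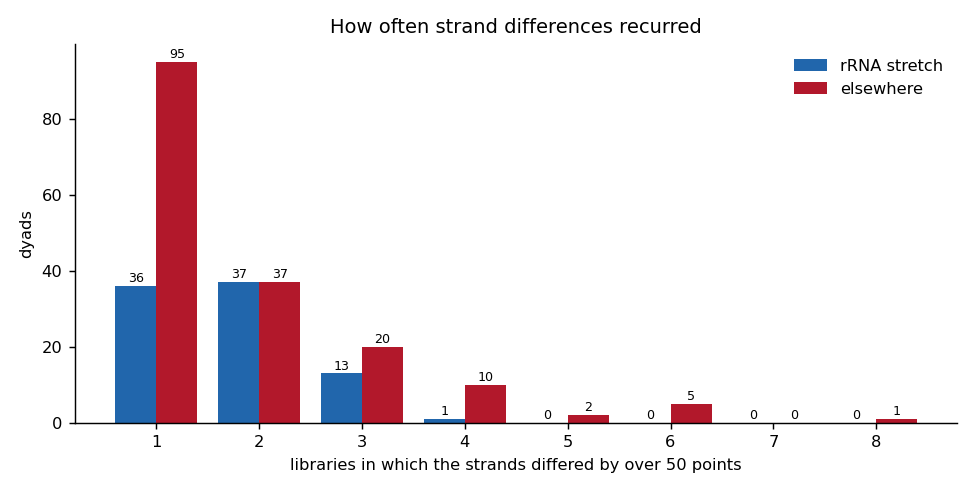
Number of dyads against the number of libraries in which their strands differed by over 50 points, for the rRNA stretch and elsewhere. Counts drop steeply, with 131 dyads discordant in 1 library and 1 dyad discordant in all 8.

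A single dyad, chr2:98666384, was discordant in all 8 libraries. Its plus strand read 86.0 and 87.6% in the combination, 83.6 and 86.7% in AZA, 78.5 and 88.5% in AG120, and 86.1 and 91.4% in Vehicle. Its minus strand read 2.49 and 2.09% in the combination, 2.39 and 2.48% in AZA, 2.24 and 2.10% in AG120, and 2.88 and 2.52% in Vehicle. The plus strand was thus the high one throughout, and drugs did not order the libraries. The strands were very unequally covered, with 977 to 1984 reads on the plus strand and 380686 to 650267 on the minus strand. The nearby dyad at chr2:98666393 had both strands over 80% in all 8 libraries. It had 73359 to 112336 reads on the plus strand and 380856 to 650209 on the minus strand. The plus strand of the discordant dyad was thus called in far fewer reads than that of its neighbour, while minus strand depths were nearly equal. The part of this in the strand difference was not tested, so it is not read as a strand difference of 1 CpG.

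The dyads next in recurrence behaved less regularly. A dyad at chr2:32117498, 6683 bp from the nearest gene, read 100% on the plus strand of every library, while its minus strand read 0 and 0% in the combination, 27.8 and 42.2% in AZA, 53.3 and 0% in AG120, and 32.2 and 56.5% in Vehicle. It was discordant in 6 libraries, always with the plus strand higher, from as few as 11 reads. Inside 2810408A11Rik the dyad at 69900360 was also discordant in 6, with the plus strand higher in 2 of them. Its plus strand read 12.5 and 92.2% in the combination, 65.8 and 3.85% in AZA, 98.9 and 0% in AG120, and 10 and 64.1% in Vehicle. Its minus strand read 100 and 0%, 99.4 and 91.3%, 8.89 and 100%, and 88.9 and 100% in the same order, so the replicates had opposite strands methylated in the combination and in AG120, while the minus strand was the higher one in both AZA and both Vehicle libraries. A dyad in Myo5b, a gene for a vesicle motor, and one near Nrip3, whose product interacts with nuclear receptors, were each discordant in 6 libraries, with the plus strand higher in 2. Opposite strands were methylated in the replicates of the combination for both, and in those of AG120 for Nrip3. Both AZA libraries read 0% on the plus and 100% on the minus strand of the Myo5b dyad and 0% on both strands of the Nrip3 dyad, and both Vehicle libraries had the minus strand higher at Nrip3.

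Cytosines in dyads were compared with those of the 32081 rows in no dyad in the same libraries. Mean levels did not differ beyond the spread: 37.3 ± 3.14% for dyad rows and 38.6 ± 0.716% for other rows (SD, n = 8; two-sided exact sign-flip permutation p = 0.281, dyad rows higher in 3 of 8 libraries). Intermediate levels were more frequent in dyads. Rows between 20 and 80% made up 43.5 ± 2.05% of dyad rows and 8.18 ± 1.77% of other rows, higher in 8 of 8 libraries (exact sign-flip permutation p = 0.00781, the smallest that 8 libraries can give). Without the rRNA stretch the shares were 19.9 ± 2.16 and 7.93 ± 1.77% (exact sign-flip permutation p = 0.00781). Rows at exactly 0 or 100% made up 34.8 ± 2.58% of dyad rows and 79.0 ± 3.25% of other rows (exact sign-flip permutation p = 0.00781, lower in 8 of 8).

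Depth differed between these sets too. The median of the mean depth was 445 reads for dyad rows and 169 for other rows, and 204 and 168.5 without the rRNA stretch. Its part in the shares above was not tested. Between the libraries of a group, 5.62 ± 1.10% of dyad rows and 9.88 ± 1.08% of other rows differed by over 50 points, lower for dyad rows in all 4 groups (exact sign-flip permutation p = 0.125, the smallest that 4 pairs can give).

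Few genes of the lists used here had a dyad. Outside the rRNA stretch the dyads named only 146 genes, within 5000 bp. The share of all genes with a dyad was not computed, so counts of 0 are not read as a result about a list. Of 11 gene lists, those of cell cycle, imprinted, germline, stromal and endothelial, myeloid, red cell and megakaryocyte, lymphoid, and IDH and methylation machinery genes had 0 genes with a dyad inside or within 1000 bp. Each of the other lists had 1. Runx1, a transcription factor of blood stem cells, had a dyad at 92697088 with a mean level of 0 and 0% in the combination and AZA groups, 7.42% in AG120 and 8.25% in Vehicle. Its plus strand read 29.7% in AG120 replicate 2 and 33.0% in Vehicle replicate 1 and 0% in the other libraries, and its minus strand read 0% in all 8. Gusb, a lysosomal enzyme gene used as a housekeeping gene, read 56.0% on the plus strand of AZA replicate 1 and 0% in every other reading. Tbx2, a developmental T-box factor, averaged 25% in the combination, 27.5% in AZA, 25.6% in AG120 and 10.9% in Vehicle, and was discordant in 2 libraries. For comparison, 144 of all 799 dyads (18%) had both strands under 20% in all 8 libraries, and none of these 3 did.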

How the data were processed

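Methylation was measured by RRBS in 8 libraries. Each row of the deposited table is 1 position, and its columns are, per the file headers, unnormalized counts of methylated and of unmethylated reads in every library. Per the labels a commercial RRBS kit with spike-in controls was used, and spike-in values were not used here. For the authors' steps, the submitters' processing notes name Bismark 0.22.3 and the mm10 build, beside Trim Galore 0.4.4, SAMtools 1.4.1, bcl2fastq 2.17.1.14, edgeR 3.32 and R 4.0.2, without roles. How reads were deduplicated or trimmed at fragment ends, and the conversion rate, is not given in the sources used. The number of per-sample columns not used is 0.

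Adjoining rows at p and p+1, each with at least 10 reads in all 8 libraries, were taken on the 19 autosomes. Runs of adjoining rows of even length were split into dyads from their first row, p being the plus strand cytosine and p+1 the minus strand cytosine. A level is methylated reads over all reads of a strand, and a dyad level is the mean of its strands. Classes were both strands over 80%, both under 20%, and strands differing by over 50 points. Drug effects compared 4 libraries with a drug against 4 without by exact permutation over 70 assignments (two-sided, adjusted over 5 measures), with intervals from the same permutations; the interaction set the Vehicle and combination libraries against the AG120 and AZA libraries. Dyad and other rows were compared by exact sign flips within libraries. edgeR 4.0.16 under R 4.3.3 fitted methylated and unmethylated counts of all 33679 rows with library terms and group methylation terms (robust quasi-likelihood F-test, Benjamini-Hochberg over all rows, threshold 0.05). limma 3.58.1, DESeq2 1.42.0 and the likelihood ratio test were alternatives. The fit was tested on simulated data. Tables were made with Python 3.11.15, numpy 2.4.6, pandas 2.3.3 and scipy 1.17.1, and figures with matplotlib 3.10.9.

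Genes were taken from the RefSeq table of GRCm38.p6 (inside, or within 5000 bp), and promoter letters from RefSeq; sequence elsewhere was not used here. The 11 gene lists had 378 entries. Named dyads were the 6 discordant in the most libraries; the 5 deepest, 1 per gene, with both strands over 80%, and with both under 20%, in all libraries; the 5 intermediate in the most libraries; up to 5 largest differences each way among dyads separated on both strands by each drug or between combination and Vehicle; and dyads of the lists. Members, lists and rules were chosen with earlier results of these data known. Whether replicate numbers pair libraries was checked by correlating deviations from group means. Same-numbered libraries had correlations between -0.016 and 0.024, so the numbers were not used as a block in the tests reported.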

Additional observations from a re-analysis of the deposited data

How the results depend on the processing

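Over the alternatives that leave out no library, 168 values kept their direction and their side of the threshold or stayed within 1.5 times their count, 25 counts moved further, 9 differences no longer passed the unadjusted threshold, 4 newly passed it and 2 changed sign. For AG120 the mean dyad level differed by -0.672 points with 1 dyad per stretch (exact permutation p = 0.314), opposite to the 5.20 points of all dyads. With drug labels permuted within the other drug, it was 5.20 points with an exact permutation p of 0.0556, the smallest that design allows. The mean absolute strand difference by AG120 was 3.34 points at 20 reads, 4.65 at 50 reads, 2.63 with 1 dyad per stretch, 2.97 permuted within the other drug, 2.78 over all pairs taken by the rule and 1.07 without the rRNA stretch, with exact permutation p from 0.0556 to 0.40. The last 2 alternatives were chosen after seeing the data. At 50 reads the share over 80% differed by 1.5 points and the share under 20% by -5.22 points, and with classes at 90 and 10% the low share differed by 1.31 points, each with an exact permutation p of 0.0286. The discordant share differed by 3.14 points with each strand thinned to 10 reads and by 4.12 for pairs with no adjoining row, also at 0.0286 by exact permutation. The causes were not tested.

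The counts of called rows depended on the tool. Quasi-likelihood calls over all rows were 9 for AG120 against Vehicle, 5 for AZA against Vehicle, 13 for the combination against Vehicle, 13 against AG120 and 15 against AZA, and 8 and 20 for the average effects of AZA and AG120. DESeq2 called 61, 9, 148, 69, 106, 43 and 245 in that order, limma 0 in each, and the likelihood ratio test 0 in the first 5 and then 5 and 4. At an unadjusted p under 0.05 limma had 1361, 1446, 1775, 1670, 1940, 1541 and 1689 rows. The causes were not tested.

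Replicate numbers did not pair the libraries, and a replicate block is given here only. With it the mean dyad level by AG120 differed by 5.20 points and the mean absolute strand difference by 2.97 points, both with an exact permutation p of 0.0556, the smallest the block allows. Calls with the block were 14 for AG120 against Vehicle, 10 for AZA against Vehicle, 21 for the combination against Vehicle and 18 for the average effect of AZA.

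Leaving out 1 library at a time, the mean dyad level by AG120 differed by 4.49 to 5.86 points and the mean absolute strand difference by 1.90 to 3.47 points. Calls ranged from 1 to 65 for AG120 against Vehicle, 3 to 9 for AZA against Vehicle, 8 to 67 for the combination against Vehicle, 13 to 28 against AG120 and 7 to 32 against AZA, and from 6 to 18 and 8 to 118 for the average effects of AZA and AG120. A group left with 1 library was assumed to vary like the others. Dyad rows without overlap ranged from 191 to 285 (higher with AG120), 7 to 25 (lower with AG120), 22 to 49 (higher with AZA) and 7 to 25 (lower with AZA). With 2 libraries a group and 8 in all, the smallest p of 0.0286 cannot pass adjustment over 5 measures unless at least 3 of them reach it, and dyads read 10 to 20 times give coarse levels.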
